A study of Mus musculus with 9 samples.

Results

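Homeostatic astrocyte genes were followed in the midbrain of DJ-1+/+ and DJ-1-/- mice. The set was defined by symbol and holds 9 genes, Aqp4, Slc1a2, Slc1a3, Gja1, Gjb6, Aldh1l1, S100b, Sox9 and Agt, out of 26602 genes with a count in the series. RNA came from the part of the midbrain that includes the SNpc, in 4 DJ-1+/+ (labelled WT) and 5 DJ-1-/- (labelled DJ-1 KO) mice of 3 to 4 months, with 1 library per mouse and no treatment. DJ-1-/- mice carry a targeted allele of Park7 in every cell of the body, on a background backcrossed to C57BL/6, and DJ-1+/+ mice came from the same heterozygous breeding. Each library was made with a 3′ mRNA kit, which samples transcripts next to their poly(A) tail, and each molecule carried a unique molecular identifier (UMI), so that its PCR copies count once.

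Astrocytes take up transmitter glutamate and potassium released by neurons, are joined to each other by gap junctions, and place water channels on endfeet around blood vessels. The 9 genes encode parts of this upkeep: glutamate transporters (Slc1a2, Slc1a3), gap junction connexins (Gja1, Gjb6), the endfoot water channel (Aqp4), a calcium-binding protein (S100b), a folate enzyme (Aldh1l1), a transcription factor of the glial lineage (Sox9) and the precursor of angiotensin (Agt). They are often used to recognise astrocytes, although several are also expressed in other cells. Their levels were not used here to tell reactive from non-reactive astrocytes.

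Between 841974 and 886085 molecules were counted in DJ-1+/+ and between 967751 and 1098125 in DJ-1-/- mice, so every DJ-1-/- library was deeper. Levels are given as counts per 1000000 of the library total (cpm). A count of 3 was used as the detection floor, which is 2.73 to 3.56 cpm and covers counting error only. The counts of abundant genes lay close together: the gene at the 99th percentile had a mean of 215 counts per library and the gene at the 90th percentile 112, a ratio of 1.93. The highest gene of all, Gm42418, had a mean of 1194 counts. Whether the counts of abundant genes stay in proportion to their RNA was not tested, and ratios between levels are given on this scale. Park7, the deleted gene, had 105 to 132 counts in DJ-1+/+ and 14 to 29 counts in DJ-1-/- mice. Xist, transcribed from the inactive X chromosome, had at most 2 counts in 3 mice (replicates 1 and 4 of DJ-1+/+, replicate 5 of DJ-1-/-) and 146 to 193 in the other 6. The labels do not give the sex. Fits without DJ-1+/+ replicates 1 and 4, given below, also leave out every DJ-1+/+ mouse with at most 2 Xist counts.

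All 9 genes were expressed in every mouse, and all 9 passed the filter of at least 10 counts over the 9 libraries. None of them passed a test for a genotype difference. With edgeR's quasi-likelihood test, 0 of the 9 had an unadjusted p under 0.05, against 2.83% of the 18127 genes tested (1.57% higher and 1.26% lower in DJ-1-/- mice, 285 and 228 genes, or 106 and 129 genes in DESeq2), and 0 of the 9 had an adjusted p under 0.05, against 0.00552% (Park7 alone). In cpm the genotypes overlapped for all 9 genes, where 1.25% of the genes tested did not overlap. The log2 fold changes, DJ-1-/- over DJ-1+/+, ran from −0.13 for Slc1a2 to 0.11 for Aldh1l1, with a median of −0.03, beside 0.01 over all genes tested. With a 95% interval, the widest bounds on any of the 9 put the DJ-1-/- level between 80.7% (Gjb6) and 140% (Aldh1l1) of the DJ-1+/+ level. In bulk tissue, a change in the number of astrocytes and a change in RNA per astrocyte cannot be told apart.

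**Figure D1:**
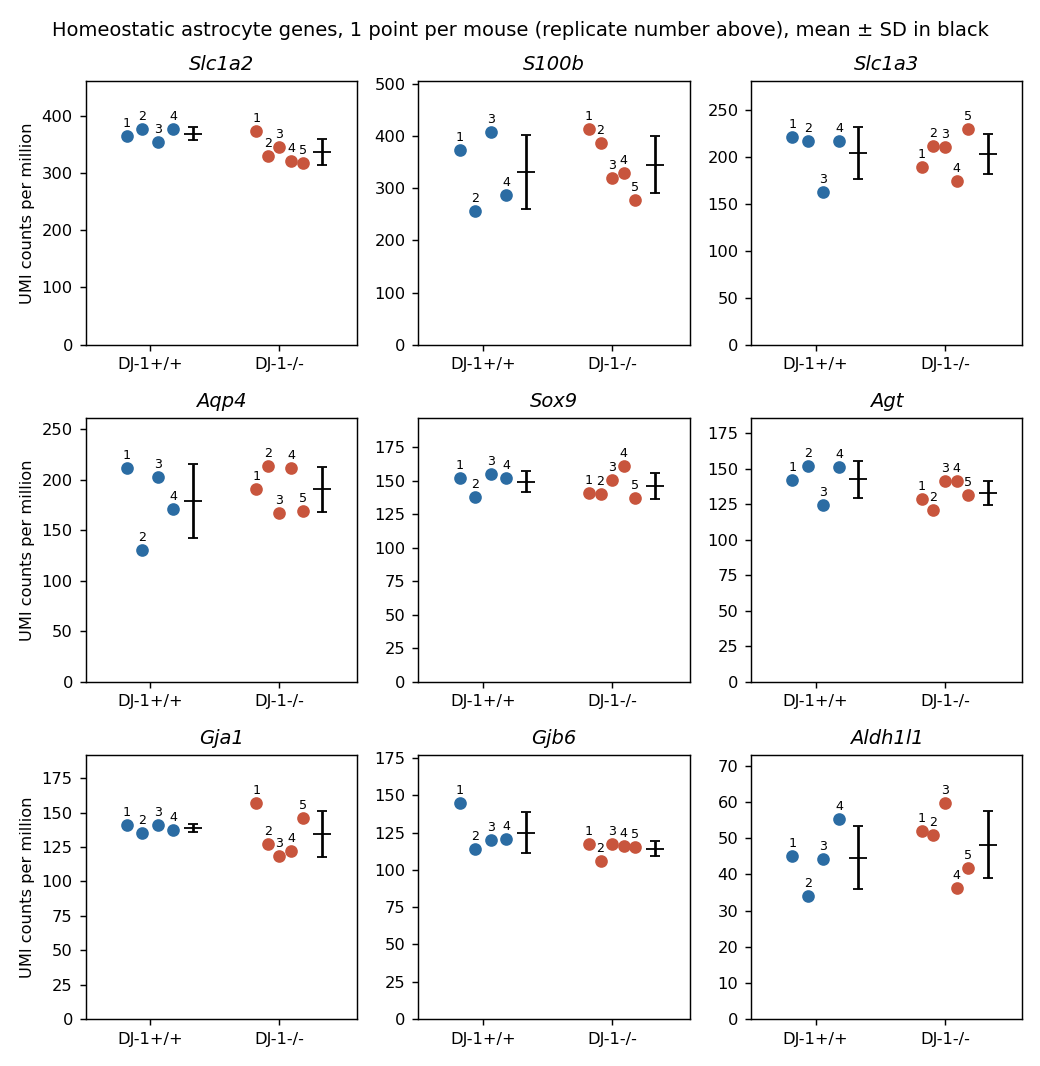
Levels of the 9 genes in cpm (y axis, from 0), 1 point per mouse with its replicate number, in 4 DJ-1+/+ (blue) and 5 DJ-1-/- mice (red), with the mean ± SD in black. The genotypes overlap in every panel, and S100b and Aqp4 spread more widely than Slc1a2, Sox9 or Gja1.

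Counts in a 3′ library come from transcript ends and do not grow with transcript length, so levels in cpm were ranked without a length correction. Slc1a2 (mean over 9 mice 352 cpm) and S100b (339 cpm) were the highest, at ranks 37 and 45 of all genes with a count. These neighbours were not separated, since Slc1a2 was above S100b in 4 of 9 mice. Slc1a3 followed at 204 cpm and was below S100b in 9 of 9 mice, but above Aqp4 (186 cpm) in only 5 of 9. Sox9 (147 cpm), Agt (137 cpm), Gja1 (136 cpm) and Gjb6 (119 cpm) formed a close group. In it, Agt was above Gja1 in 5 of 9 mice, and Sox9 was above Agt in 8 of 9. Aldh1l1 was the lowest at 46.6 cpm, and Gjb6 was above it in 9 of 9 mice by a ratio of 1.97 to 3.33.

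Slc1a2, on chromosome 2 (GRCm38, 102658659 to 102790784, plus strand), encodes the transporter that carries most glutamate uptake in the forebrain. Its level, in order of replicate number, was 366, 377, 355 and 378 cpm in DJ-1+/+ mice. In DJ-1-/- mice it was 373, 330, 347, 321 and 318 cpm. The 4 DJ-1+/+ mice lay within a narrow range, and 4 of 5 DJ-1-/- mice were below all of them, while DJ-1-/- replicate 1 was among them. The SD was 2.98% of the mean in DJ-1+/+ and 6.76% in DJ-1-/- mice, where counting alone gives 5.49%. A difference in spread between the genotypes was not tested. The means were 369 ± 10.99 cpm (SD, n = 4) and 338 ± 22.8 cpm (SD, n = 5). The log2 fold change was −0.13 (standard error 0.06, 95% interval −0.26 to 0.01, unadjusted p = 0.0635 from edgeR's quasi-likelihood test), the smallest p of the 9 genes. It was negative under all 18 alternatives, and its adjusted p stayed above 0.05 in all of them. The unadjusted p from edgeR was under 0.05 only with RLE size factors (0.0469) and without DJ-1-/- replicate 1 (0.0173). That mouse is the DJ-1-/- mouse that lay among the DJ-1+/+ values. In edgeR the unadjusted p was 0.131 without a filter, 0.146 with a replicate block and 0.220 without DJ-1+/+ replicates 1 and 4.

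Slc1a3, on chromosome 15 (8634124 to 8710764, minus strand), encodes the second astrocyte glutamate transporter, which is prominent in the Bergmann glia of the cerebellum. It was measured at 221, 217, 163 and 217 cpm in DJ-1+/+ mice. The DJ-1-/- values were 189, 211, 210, 175 and 230 cpm. DJ-1+/+ replicate 3 was the lowest of all, the remaining DJ-1+/+ mice lay within 5 cpm of each other, and of the DJ-1-/- mice 4 were below and 1 above those 3 values. The log2 fold change was −0.01 (standard error 0.10, 95% interval −0.22 to 0.20, unadjusted p = 0.941 from edgeR's test). Its sign turned under 8 of 18 alternatives, up to 0.10 without DJ-1+/+ replicates 1 and 4. Slc1a2 was above Slc1a3 in 9 of 9 mice, by a ratio of 1.83 ± 0.24 (SD, n = 4) for DJ-1+/+ and 1.68 ± 0.23 (SD, n = 5) for DJ-1-/- mice.

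Gja1, on chromosome 10 (56377330 to 56402513, plus strand), encodes the main astrocyte connexin. It had 141, 135, 141 and 138 cpm in DJ-1+/+ and 157, 127, 119, 122 and 146 cpm in DJ-1-/- mice. The DJ-1+/+ mice differed by little, with an SD of 2.84 cpm, and the DJ-1-/- mice lay on both sides of them, with an SD of 16.6 cpm. These are 2.05% and 12.4% of the means, where counting alone gives 8.80%, so the DJ-1+/+ mice differed by less than counting error. A difference in spread between the genotypes was not tested. Its log2 fold change was −0.05 (standard error 0.09, 95% interval −0.24 to 0.15, unadjusted p = 0.624 from edgeR's test). With single mice left out it ran from −0.11 (without DJ-1-/- replicate 1) to −0.0049 (without DJ-1-/- replicate 3).

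Gjb6, on chromosome 14 (57123303 to 57133611, minus strand), encodes a second connexin of mature astrocytes. Its level was 145, 114, 120 and 121 cpm in DJ-1+/+ mice. In DJ-1-/- mice it was 117, 106, 118, 116 and 115 cpm. DJ-1+/+ replicate 1 was the highest mouse, and the other 8 lay between 106 and 121 cpm. On the log2 scale the difference was −0.13 (standard error 0.09, 95% interval −0.31 to 0.05, unadjusted p = 0.165 from edgeR's test). It was −0.05 without DJ-1+/+ replicate 1 and −0.03 without DJ-1+/+ replicates 1 and 4. Gja1 was above Gjb6 in 8 of 9 mice.

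Aqp4, on chromosome 18 (15389496 to 15410982, minus strand), encodes the water channel of endfeet and is also made by ependymal cells. It had 211, 131, 202 and 172 cpm in DJ-1+/+ and 191, 214, 167, 212 and 170 cpm in DJ-1-/- mice. DJ-1+/+ replicate 2 was the lowest of all 9 mice, and the DJ-1-/- values fell inside the DJ-1+/+ range except for replicates 2 and 4, which were just above it. The means were 179 ± 36.5 cpm (SD, n = 4) and 191 ± 22.3 cpm (SD, n = 5), with a log2 fold change of 0.09 (standard error 0.12, 95% interval −0.16 to 0.35, unadjusted p = 0.444 from edgeR's test). Without DJ-1+/+ replicate 2 the log2 fold change was −0.04, and without DJ-1+/+ replicates 1 and 4 it was 0.20.

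S100b, on chromosome 10 (76253853 to 76261159, plus strand), encodes a calcium-binding protein of astrocytes that is also made by oligodendrocytes. It was measured at 374, 257, 408 and 287 cpm in DJ-1+/+ mice. The DJ-1-/- values were 414, 387, 319, 329 and 277 cpm. Both genotypes held high and low mice, and the highest mouse was 1.61 times the lowest. The means were 331 ± 71.4 cpm (SD, n = 4) and 345 ± 55.2 cpm (SD, n = 5), with a log2 fold change of 0.06 (standard error 0.13, 95% interval −0.22 to 0.34, unadjusted p = 0.651 from edgeR's test). It was −0.05 without DJ-1+/+ replicate 2, −0.0046 without DJ-1+/+ replicate 4 and −0.02 without DJ-1-/- replicate 1. S100b overlaps Dip2a on the opposite strand, and the use of strand in counting is not given in the sources used here. Dip2a had 83 to 121 counts per library, with a log2 fold change of −0.06 (standard error 0.09).

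Aldh1l1, on chromosome 6 (90486427 to 90600203, plus strand), encodes formyltetrahydrofolate dehydrogenase, an enzyme of folate metabolism and a common astrocyte marker. It had 38, 30, 38 and 49 counts in DJ-1+/+ and 52, 56, 58, 35 and 43 counts in DJ-1-/- mice. The range in cpm was 34.1 to 55.3 in DJ-1+/+ and 36.2 to 59.8 in DJ-1-/- mice, so the genotypes covered nearly the same span. It had the fewest counts of the 9 genes and the widest interval (log2 fold change 0.11, standard error 0.18, 95% interval −0.27 to 0.49, unadjusted p = 0.557 from edgeR's test). The direction rested on DJ-1+/+ replicate 2, without which the log2 fold change was −0.01, and without DJ-1+/+ replicates 1 and 4 it was 0.30 (unadjusted p = 0.195 in edgeR).

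Sox9, on chromosome 11 (112782224 to 112787760, plus strand), encodes a transcription factor kept on in adult astrocytes. Its level was 152, 138, 155 and 152 cpm in DJ-1+/+ and 141, 140, 151, 161 and 137 cpm in DJ-1-/- mice. These values lay within 1.17-fold of each other, the narrowest span of the 9 genes. Its log2 fold change was −0.03 (standard error 0.07, 95% interval −0.19 to 0.13, unadjusted p = 0.701 from edgeR's test), and −0.08 without DJ-1-/- replicate 4 or DJ-1+/+ replicate 2.

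Agt, on chromosome 8 (124556534 to 124569706, minus strand), encodes angiotensinogen, which renin cleaves and which astrocytes make in the brain. It had 143, 152, 124 and 151 cpm in DJ-1+/+ and 129, 121, 141, 142 and 132 cpm in DJ-1-/- mice. All DJ-1+/+ mice but replicate 3 were above all DJ-1-/- mice, replicate 1 by under 1 cpm, and replicate 3 was above only DJ-1-/- replicate 2. On the log2 scale the difference was −0.10 (standard error 0.08, 95% interval −0.28 to 0.07, unadjusted p = 0.217 from edgeR's test). It was −0.17 (unadjusted p = 0.0683 in edgeR) without DJ-1+/+ replicate 3 and −0.07 (unadjusted p = 0.438 in edgeR) without DJ-1-/- replicate 2. Without DJ-1+/+ replicates 1 and 4 the log2 fold change was −0.06 (unadjusted p = 0.596 in edgeR).

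**Figure D2:**
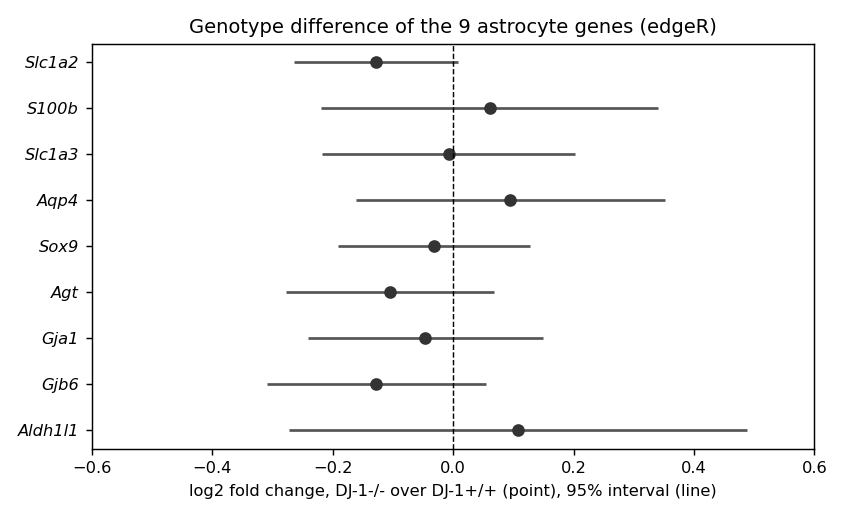
The log2 fold change of each gene, DJ-1-/- over DJ-1+/+ (point), with its 95% interval from edgeR (line), and a dashed line at no difference. Every interval crosses 0, and that of Aldh1l1 is the widest (−0.27 to 0.49).

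The sum of the 9 genes lay between 1555 and 1798 cpm for DJ-1+/+ and between 1566 and 1765 cpm for DJ-1-/- mice. Its means were 1684 ± 101 cpm (SD, n = 4) and 1652 ± 76.3 cpm (SD, n = 5), a ratio of 0.981. Among the 9 mice, the highest sum was 1.16 times the lowest. DJ-1+/+ replicate 1 had the highest sum and DJ-1+/+ replicate 2 the lowest, so the extremes were both DJ-1+/+ mice.

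The genes differed in how much they varied between mice of one genotype. The variance within genotypes was divided by the variance that counting alone gives, so that 1 stands for counting error only. S100b had a ratio of 10.9 and Aqp4 of 4.28, followed by Slc1a3 at 2.68 and Aldh1l1 at 1.63. Gja1 (1.19), Slc1a2 (1.01), Agt (0.765), Gjb6 (0.685) and Sox9 (0.527) lay near or below counting error. Among all tested genes with a mean of at least 300 counts, the median of this ratio was 1.54 over 63 genes, which include Slc1a2 and S100b. Between 100 and 150 counts it was 0.877 over 2442 genes, which include Sox9, Agt, Gja1 and Gjb6.

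**Figure D3:**
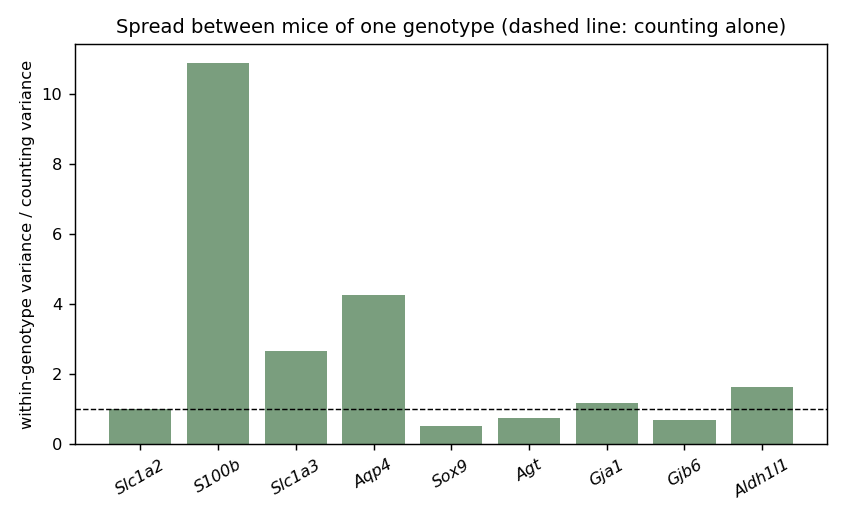
Within-genotype variance of each gene over 9 mice, divided by the variance from counting alone (y axis, no unit), with a dashed line at 1. S100b (10.9) and Aqp4 (4.28) rise far above the line, and Sox9, Gjb6 and Agt stay under it.

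Levels of S100b and Aqp4 moved together over the 9 mice (Pearson r = 0.77, exact permutation p = 0.0165, Spearman rho = 0.67, exact permutation p = 0.0589), and r was 0.88 over the 7 mice left without DJ-1+/+ replicate 3 and DJ-1-/- replicate 1. S100b and Agt moved in opposite directions (r = −0.72, exact permutation p = 0.0343, rho = −0.70, exact permutation p = 0.0433), with r = −0.59 without the same mice. These were the 2 of 36 pairs with an unadjusted p under 0.05 for r, and neither kept it after Benjamini-Hochberg adjustment over the 36 (0.595 and 0.617 from the exact permutation test). The median r of the 36 pairs was 0.12, with 24 positive and 12 negative. The genotypes hold 4 and 5 mice, too few to give r within each.

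Because the dissected tissue holds many cell types, the 9 genes were set beside the summed level of 11 lists of markers of other cells. Of 99 relations over 9 mice, 8 had an unadjusted exact permutation p under 0.05 for Pearson r and 0 after adjustment. The smallest p for r was that of S100b with 10 oligodendrocyte genes (among them Mbp, Mog and Mag), genes of myelin and the cells that make it. Pearson r was 0.88 (exact permutation p = 0.0020) and Spearman rho 0.78 (exact permutation p = 0.0172). The value of r was 0.87 over the 7 mice left without DJ-1+/+ replicates 1 and 3, and between 0.83 and 0.92 with each mouse left out in turn. After Benjamini-Hochberg adjustment over 99 relations the p of r was 0.198 and that of rho 0.406 (exact permutation test), and the relation was singled out after its values were seen. The oligodendrocyte sum ranged from 2153 cpm in DJ-1+/+ replicate 2, the mouse with the least S100b, to 2854 cpm in DJ-1+/+ replicate 3. The DJ-1-/- range was 2391 to 2754 cpm. S100b and the oligodendrocyte sum had the same order within DJ-1+/+ but not within DJ-1-/- mice, where replicate 5 had the least S100b and replicate 3 the lowest sum. Aqp4 had r = 0.71 with the same list (exact permutation p = 0.0326, 0.471 after adjustment, and rho = 0.58, exact permutation p = 0.108), and between 0.48 and 0.85 with each mouse left out. Slc1a2, the other gene at the level of S100b, had r = 0.14 (exact permutation p = 0.724) and rho = 0.10 (exact permutation p = 0.810).

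**Figure D4:**
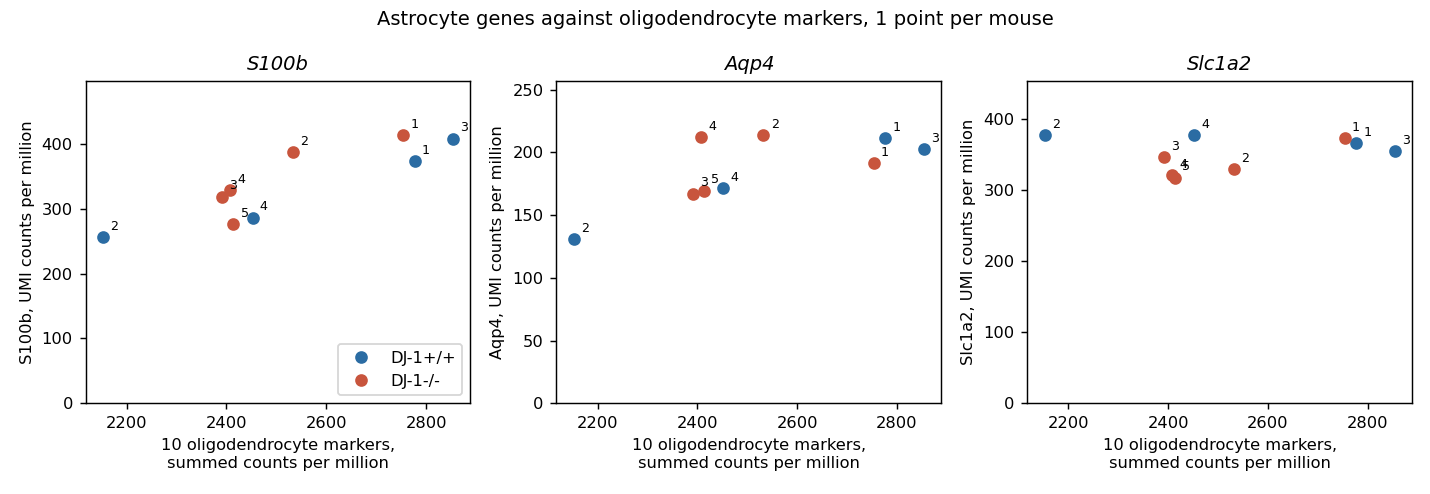
Level of S100b, Aqp4 and Slc1a2 in cpm (y axes, from 0) against the summed cpm of 10 oligodendrocyte markers (x axis), 1 point per mouse with its replicate number, DJ-1+/+ in blue and DJ-1-/- in red. S100b climbs along the x axis (r = 0.88), Aqp4 less so (r = 0.71) and Slc1a2 hardly (r = 0.14).

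Marker lists of neighbouring tissue stood apart in single mice. The summed level of 8 cerebellar neuron genes was 858 cpm in DJ-1+/+ replicate 1, 147 to 249 cpm in the other DJ-1+/+ mice and 149 to 202 cpm in DJ-1-/- mice. Gabra6, Pcp2 and Fat2, all defining markers of cerebellar neurons, were at 0 in at least 3 libraries each. Grm4 (786 over the 9 libraries), Car8 (493) and Neurod1 (321) gave most of the counts of this list, with 39 to 174 for each remaining marker. Whether the sum, or a relation with it, is particular to cerebellar neurons was not tested. The sum of 5 markers of Bergmann glia, the cerebellar astrocytes, was also highest in DJ-1+/+ replicate 1, at 361 cpm, with 219 to 258 cpm in the other DJ-1+/+ and 209 to 264 cpm in DJ-1-/- mice. Most of its counts came from Timp4 (1075 over the 9 libraries) and Hopx (580), with 110 to 171 for each remaining marker. How far this sum is particular to Bergmann glia was not tested. Gjb6 was at its highest in DJ-1+/+ replicate 1, and its r with the cerebellar list was 0.92 (exact permutation p = 0.0333, 0.471 after adjustment, and rho = 0.25, exact permutation p = 0.521) but −0.20 without DJ-1+/+ replicates 1 and 4. For Slc1a3, r with the cerebellar list was 0.38 (exact permutation p = 0.314) and rho 0.85 (exact permutation p = 0.00607, 0.273 after adjustment over 99), and r was 0.86 without the same mice. Without those mice, r with the cerebellar list was also −0.93 for S100b, −0.81 for Aqp4, −0.55 for Sox9 and 0.58 for Agt. It was −0.26 for Aldh1l1, −0.14 for Gja1 and −0.09 for Slc1a2. Over all 9 mice, r for the same genes ran from −0.04 (Aldh1l1) to 0.27 (Agt), with 0.11 for S100b and 0.26 for Aqp4. The values of r without those mice were not tested. With the Bergmann glia list, Slc1a3 had r = 0.14 (exact permutation p = 0.734) and rho = −0.13 (exact permutation p = 0.744). The 17 choroid plexus genes reached 1478 cpm in DJ-1+/+ replicate 4, with 403 to 716 cpm in the other DJ-1+/+ and 427 to 556 cpm in DJ-1-/- mice. Enpp2 (2076 over the 9 libraries), Ttr (1013) and Prlr (657) gave most of the counts. Whether this sum is particular to choroid plexus was not tested. Kcne2 was at 0 in 5 libraries, Aqp1 in 4, Folr1 and Steap1 in 2 each and Kl and Calml4 in 1 each. The 7 ependymal markers, none of them at 0 in any library, ran from 87.5 to 193 cpm (DJ-1+/+) and from 95.5 to 174 cpm (DJ-1-/-). With Aldh1l1 they had r = 0.76 (exact permutation p = 0.0212, 0.451 after adjustment) and rho = 0.87 (exact permutation p = 0.00451, 0.273 after adjustment), and r was 0.52 without DJ-1+/+ replicate 4 and DJ-1-/- replicate 3. Aldh1l1 also had r = 0.76 (exact permutation p = 0.0228, 0.451 after adjustment) and rho = 0.72 (exact permutation p = 0.0369) with the oligodendrocyte precursor list, and r was 0.70 without DJ-1+/+ replicate 4 and DJ-1-/- replicate 1. Without DJ-1+/+ replicates 1 and 4 edgeR gave 0 of the 9 genes at an unadjusted p under 0.05. Only replicates 2 and 3 of DJ-1+/+ remained in that fit, so a count of 0 says little about neighbouring tissue. The mice left out also had the low Xist counts of their genotype, and sex and neighbouring tissue cannot be told apart there.

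**Figure D5:**
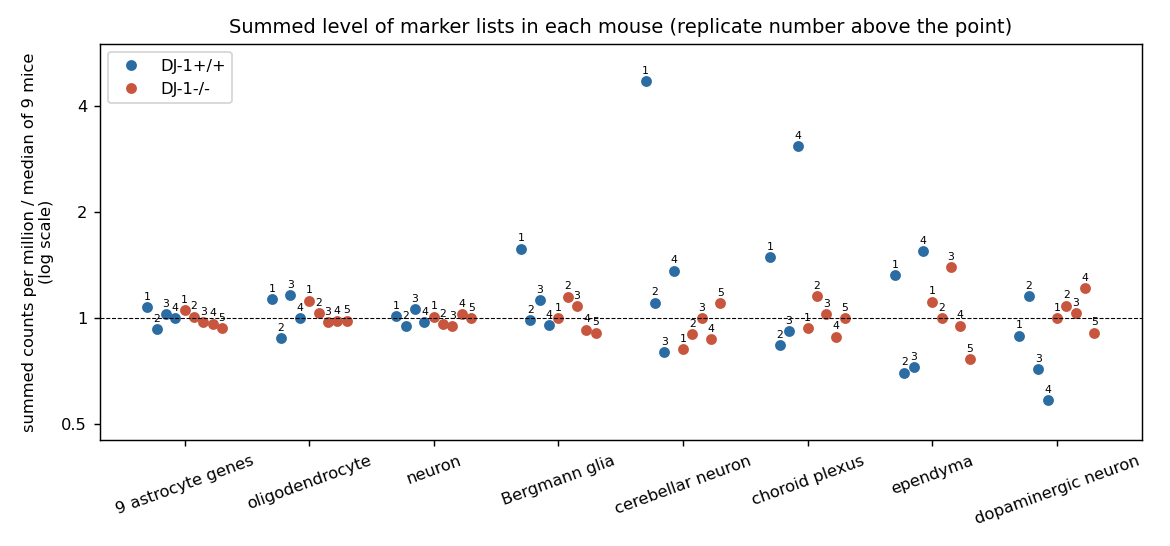
Summed cpm of each marker list in each mouse, divided by the median of the 9 mice (y axis, log scale), with replicate numbers, DJ-1+/+ in blue and DJ-1-/- in red. The 9 astrocyte genes stay close to 1, while the cerebellar neuron list is high in DJ-1+/+ replicate 1 and the choroid plexus list in DJ-1+/+ replicate 4.

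In the other lists the range over DJ-1+/+ mice is given first. Oligodendrocyte precursor markers (6 genes) ran from 543 to 583 and from 523 to 581 cpm, and neuron markers (10 genes) from 2488 to 2778 and from 2494 to 2690 cpm. With the neuron sum, Slc1a3 had r = −0.69 (exact permutation p = 0.0420, 0.520 after adjustment) and rho = −0.45 (exact permutation p = 0.230). Its r was −0.42 without DJ-1+/+ replicates 2 and 3. Dopaminergic neuron markers (8 genes) ran from 456 to 898 and from 707 to 947 cpm, with Pitx3 at 0 in 2 libraries. All 8 were higher in DJ-1-/- mice, 3 of them at an unadjusted p under 0.05 in edgeR, beside 2.83% of all genes tested. The ratio of the mean sums was 1.25. DJ-1+/+ replicates 3 and 4 had the lowest sums of all mice (558 and 456 cpm), and DJ-1+/+ replicates 1 and 2 had 694 and 898 cpm. The cerebellar and choroid plexus lists were lower in DJ-1-/- mice for all 8 and all 17 genes, 6 and 9 of them at an unadjusted p under 0.05 in edgeR. The part of these lists in the levels of the astrocyte genes was not tested. Microglia markers (10 genes) ran from 671 to 685 and from 629 to 754 cpm, endothelial markers (10 genes) from 673 to 841 and from 656 to 773 cpm, and meningeal markers (7 genes) from 230 to 393 and from 248 to 384 cpm, with Lum at 0 in 1 library. With the endothelial sum, S100b had r = 0.77 (exact permutation p = 0.00523, 0.259 after adjustment, and rho = 0.83, exact permutation p = 0.00827) and Slc1a3 r = −0.75 (exact permutation p = 0.0223, 0.451 after adjustment, and rho = −0.70, exact permutation p = 0.0433), and these were 0.65 and −0.23 without the mice farthest from the median sum, DJ-1+/+ replicate 3 and DJ-1-/- replicate 1.

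Genes that work beside the 9 were then read from the same fit. Of 140 genes in 11 lists 132 were tested. The DJ-1-/- level was higher for 58 and lower for 74, and the median log2 fold change was −0.01. An unadjusted p under 0.05 was found for 5 of them in edgeR's test, 3.79% of those tested against 2.83% of all genes, and an adjusted p under 0.05 for 0.

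Genes of glutamate, GABA, glycine and glutamine handling gave 0 of 9 with an unadjusted p under 0.05 in edgeR. Their median log2 fold change was 0.03, from −0.14 for Slc7a11, the cystine-glutamate exchanger, to 0.18 (standard error 0.16) for Slc38a3, a glutamine transporter. Of the other glutamate transporters, Slc7a11 apart, Slc1a1 of neurons had 92.7 ± 15.8 cpm (SD, n = 4) and 79.3 ± 5.92 cpm (SD, n = 5), with a log2 fold change of −0.22 (standard error 0.12, unadjusted p = 0.0726 in edgeR). Slc1a6 of Purkinje cells also had −0.22 (standard error 0.22) and was highest in DJ-1+/+ replicate 1, and Slc1a7 did not pass the filter.

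For potassium, bicarbonate and endfoot anchoring genes, 0 of 13 had an unadjusted p under 0.05 in edgeR, with a median of −0.00077 and the highest value at 0.16 for Clcn2, a chloride channel. Of the 7 other connexins tested 1 had such a p. This was Gjc3, a connexin of oligodendrocytes and Schwann cells, with 129, 133, 152 and 144 cpm in DJ-1+/+ and 102, 115, 115, 127 and 131 cpm in DJ-1-/- mice. The highest DJ-1-/- mouse was just above the lowest DJ-1+/+ mouse. Its log2 fold change was −0.25 (standard error 0.09, unadjusted p = 0.0126, adjusted p = 0.999971 in edgeR), and without DJ-1+/+ replicate 3 it was −0.21 with an unadjusted p of 0.0505.

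Lipid, sugar and metal handling genes of astrocytes had a median of 0.02 over 12 genes, with 0 at an unadjusted p under 0.05 in edgeR, from −0.05 for Apoe to 0.12 for Plpp3. The same test gave 0 of 15 folate enzymes, with extremes, among those with at least 20 cpm, of −0.27 (standard error 0.17) for Mthfd1l and 0.20 (standard error 0.11) for Mthfd2, the mitochondrial partners of the folate cycle. It also gave 0 of 20 other astrocyte surface, receptor and matrix genes, with a median of −0.03, from −0.20 for Grin2c to 0.10 for Mertk. Their summed level was 2514 ± 64.5 cpm (SD, n = 4) for DJ-1+/+ and 2469 ± 46.9 cpm (SD, n = 5) for DJ-1-/- mice, a ratio of 0.982.

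Around Agt, 13 of 15 genes of angiotensin processing and its receptors were tested, with a median of −0.05. Mas1, the receptor of a short angiotensin peptide, had 1, 2, 1 and 1 counts in DJ-1+/+ and 1, 15, 8, 2 and 3 in DJ-1-/- mice, so that every DJ-1+/+ mouse was under the floor of 3 counts. Of the DJ-1-/- mice, replicates 2 and 3 exceeded it. The unadjusted p was 0.0267 in edgeR and 0.126 without DJ-1-/- replicate 2. Among genes with at least 20 cpm, the extremes were −0.39 (standard error 0.30) for Ace, the converting enzyme, and 0.29 (standard error 0.17) for Mme, neprilysin. Around S100b, 0 of 10 genes (other S100 genes and their receptor Ager) had an unadjusted p under 0.05 in edgeR, from −0.15 for S100a16 to 0.55 (standard error 0.32) for S100a10 among those with at least 20 cpm.

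Of 15 transcription factors of the astrocyte lineage, Pax6 alone had an unadjusted p under 0.05 in edgeR. It was 96.2 cpm in DJ-1+/+ replicate 1, the mouse with the high cerebellar list, and 36.4 to 53.5 cpm in the other DJ-1+/+ and 35.1 to 44.6 cpm in DJ-1-/- mice. Its log2 fold change was −0.55 (standard error 0.22, unadjusted p = 0.0248), and −0.22 (unadjusted p = 0.227 in edgeR) without that mouse. Pax6 is also expressed in cerebellar granule cells. The highest of this list was Lhx2, at 0.54 (standard error 0.43).

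Reactive astrocyte genes had a median of −0.04 over 16 of 20 genes tested, with summed levels of 629 ± 56.2 cpm (SD, n = 4) and 643 ± 76.2 cpm (SD, n = 5). Serpina3n, a protease inhibitor raised in reactive astrocytes, had 15.4, 37.5, 47.7 and 28.2 cpm in DJ-1+/+ and 51.0, 51.9, 69.1, 46.5 and 36.1 cpm in DJ-1-/- mice. The groups overlapped, with DJ-1+/+ replicate 1 the lowest and DJ-1-/- replicate 3 the highest. Its log2 fold change was 0.65 (standard error 0.25, unadjusted p = 0.0189, adjusted p = 0.999971 in edgeR). The unadjusted p from edgeR was 0.0686 without DJ-1+/+ replicate 1 and 0.0611 without DJ-1-/- replicate 3, and without DJ-1+/+ replicates 1 and 4 the log2 fold change was 0.26. Timp1 had 5, 1, 3 and 1 counts in DJ-1+/+ and at most 1 count in each DJ-1-/- mouse, and is given with no fold because the DJ-1+/+ mean of 2.92 cpm is also under the floor of those libraries. Its unadjusted p was 0.0418 in edgeR, 0.0743 in DESeq2, 0.0840 without DJ-1+/+ replicate 3 and 0.0533 to 0.0779 with each DJ-1-/- mouse left out, and without DJ-1+/+ replicate 1 it did not pass the filter. Hspb1 was the lowest of this list among genes with at least 20 cpm, at −0.16 (standard error 0.29).

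Over the 9 mice, the genes whose pattern was most like the mean standardised log2(cpm + 1) of the 9 astrocyte genes were Srsf4 (Pearson r = 0.96, Spearman rho = 0.93), Grk2 (0.95 and 0.75), mt-Nd4 (0.93 and 0.83), Lamp2 (0.91 and 0.80) and Cib2 (0.90 and 0.95). They are the 5 highest r of 10919 genes with a mean of at least 20 cpm, over 9 points that share their library totals, and are given as a description with no test. All 5 were highest in DJ-1+/+ replicate 1. The mean pattern itself was highest in that mouse and lowest in DJ-1+/+ replicate 2.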

How the data were processed

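RNA-seq was carried out on midbrain tissue of 9 mice (4 DJ-1+/+ and 5 DJ-1-/-), with groups and replicate numbers taken from the sample titles. The authors deposited, for each mouse, raw UMI counts per Ensembl gene as whole numbers, leaving out genes at 0. The submitters' processing notes name fastp 0.20.0, STAR 2.7.3a, Subread featureCounts 2.0.0, UMI-tools 1.0.0 and GRCm38, without roles or a strand setting. How UMIs were grouped is not given in the sources used here.

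Counts were joined by identifier (absent genes set to 0) and named from GENCODE M21 (GRCm38), which holds 26576 of the 26602 genes. Genes with at least 10 counts in all were tested with edgeR 4.0.16 (TMM, glmQLFit, glmQLFTest, genotype only) in R 4.3.3, with Benjamini-Hochberg adjustment. Standard errors are the log2 fold change divided by the square root of F. Relations over mice were tested two-sided by exact permutation of all pairings. Chi-square per degree of freedom was 1.07 to 2.27 over 16 pairs of libraries of one genotype, and no library was treated as a copy. The fit was tested on simulated data.

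Genes named are the 9, Park7, Xist, those of the wider lists with an unadjusted p under 0.05 or the extreme log2 fold change at 20 cpm or more, and the 5 most alike. Gm42418, Dip2a and the markers at 0 were named after their values were seen. Some genes that this rule names are not reported here. The members and lists were chosen with earlier results of these data known. Alternatives were RLE size factors, library totals, DESeq2 1.42.0, no filter or at least 50 counts, a term for Xist, a replicate block, counts thinned to 841974, and mice left out.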

Additional observations from a re-analysis of the deposited data

Results flagged for a closer look

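In 14 of 114 groups examined, 1 mouse stood apart from the others of its genotype by a wide gap. Chance sets apart about 1 in 20 groups of independent values, but these groups share genes and include genes named for an extreme difference, so no chance number is given for them. Of these, 3 concern the astrocyte genes. Slc1a3 was 163 cpm in DJ-1+/+ replicate 3, against 217 to 221 cpm in the other DJ-1+/+ mice. Sox9 was 138 cpm in DJ-1+/+ replicate 2, against 152 to 155 cpm. Gjb6 was 106 cpm in DJ-1-/- replicate 2, against 115 to 118 cpm in the other DJ-1-/- mice.

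Among the marker lists, the cerebellar neuron sum was 858 cpm and Gabra6, a granule cell receptor subunit, 121 cpm in DJ-1+/+ replicate 1. Gabra6 was at 0.911 cpm, a single count, in DJ-1-/- replicate 2 and at 0 in the other DJ-1-/- mice. It was put among the groups examined after its values were seen, so both of its flags were chosen with them known. The endothelial sum was 841 cpm in DJ-1+/+ replicate 3, against 673 to 700 cpm in the other DJ-1+/+ mice, and the oligodendrocyte precursor sum 583 cpm in DJ-1+/+ replicate 4, against 543 to 549 cpm.

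Among genes that work beside the 9, Slc38a3 was low in DJ-1+/+ replicate 2 (35.2 cpm), Slc1a1 high in DJ-1+/+ replicate 4 (116 cpm), Slc7a11 high in DJ-1-/- replicate 5 (105 cpm) and Mthfd1l low in DJ-1-/- replicate 4 (24.8 cpm). Mas1 in DJ-1+/+ replicate 2 (2.27 cpm) is 2 counts against 1, and Timp1 in DJ-1-/- replicate 4 (0 cpm) is 0 counts against 1. What lies behind these values was not tested.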

How the results depend on the processing

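None of the 9 genes had an adjusted p under 0.05 in any of the 18 alternatives to the edgeR fit (0 in each). The count with an unadjusted p under 0.05 was 0, and 1 (Slc1a2) with RLE size factors, and ran from 0 to 1 with each mouse left out. Slc1a2, Gja1, Gjb6 and Agt kept a negative sign in all 18, and with each mouse left out Gja1 ran from −0.11 to −0.0049 and Agt from −0.17 to −0.069. The sign of Slc1a3 turned, to 0.0019 without a filter, 0.073 with a term for Xist and 0.10 without DJ-1+/+ replicates 1 and 4, and ran from −0.10 to 0.032 with each mouse left out. Without DJ-1+/+ replicates 1 and 4, Sox9 was 0.0012, Aldh1l1 0.30 and Aqp4 0.20. With each mouse left out, Aqp4 ran from −0.037 (without DJ-1+/+ replicate 2) to 0.18, Aldh1l1 from −0.0095 (without the same mouse) to 0.23 and S100b from −0.051 (likewise) to 0.17. Over all genes, the count with an adjusted p under 0.05 (1 in the edgeR fit) was 36 without a filter and 1 to 2 (without DJ-1+/+ replicate 2 or 3) with each mouse left out, and the count with an unadjusted p under 0.05 (513) was 235 in DESeq2, 802 without a filter and 338 (without DJ-1-/- replicate 2) to 732 with each mouse left out. In the wider lists the 5 genes became 8 without a filter, 3 with at least 50 counts and 2 (without DJ-1-/- replicate 3) to 8 (without DJ-1+/+ replicate 2 or DJ-1-/- replicate 5) with each mouse left out. The cause was not tested. RLE size factors gave 256 higher and 280 lower at an unadjusted p under 0.05, in place of 285 and 228, and moved the median of all genes by −0.01.

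With the replicate number as a block, 8 genes had an adjusted p under 0.05, none of them among the 9, and 8 genes of the wider lists an unadjusted one. Same-numbered mice are different animals, and their deviations had correlations of 0.30, 0.05, −0.14 and −0.20, so the numbers were not taken as pairs.

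The interval was widest for Aldh1l1 (−0.27 to 0.49, with 30 to 58 counts per mouse), followed by S100b and Aqp4, which have more counts and a larger spread between mice. Depth and spread were not separated as limits.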
